A study of Mus musculus with 10 samples.

Results

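The 6 genes described here carry the glucose signal of the insulin-secreting beta cell from glucose entry to closure of the ATP-sensitive potassium (KATP) channel: Slc2a2, G6pc2, Pcx, Glud1, Abcc8 and Kcnj11. They were chosen by name, and each was represented by 1 probe set annotated to that gene alone, so 6 of the 19938 genes measured are described. The samples were pancreatic islets of male NZO/Hl mice, a diabetes-prone strain, and of male C3H mice (C3HeB/FeJ), with 5 arrays per strain. All mice were 6 weeks old and had eaten a high-fat diet (45% of energy) since weaning at 21 days, and the isolated islets of both strains had recovered overnight in medium with 10 mM glucose. Most sample titles carry a pair of numbers, and the labels do not say whether islets of several mice were combined. Replicate numbers used here follow the order of the samples within each strain. Whole islets were measured, so other cell types of the islet and adherent pancreatic tissue contribute RNA.

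In the beta cell, glucose enters through a facilitative transporter, is phosphorylated and is broken down to pyruvate, which the mitochondria use to make ATP. The rise in ATP closes KATP channels, the membrane depolarises, calcium enters and insulin granules are released. Slc2a2 encodes the low-affinity glucose transporter GLUT2, the main one of the rodent beta cell, and G6pc2 encodes the islet glucose-6-phosphatase catalytic subunit, which turns glucose 6-phosphate back into glucose in the endoplasmic reticulum. Pcx encodes pyruvate carboxylase, which makes oxaloacetate from pyruvate, and Glud1 encodes glutamate dehydrogenase, through which glutamate enters the citric acid cycle. Abcc8 encodes the sulfonylurea receptor SUR1 and Kcnj11 the pore subunit Kir6.2, which together form the KATP channel of the beta cell.

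The deposited values are log2 expression values, so a difference of 1 log2 unit is a doubling of signal. The median of an array ranged from 6.93 to 7.05. The islet hormones Iapp (13.90 ± 0.05 in C3H, 13.88 ± 0.05 in NZO) and Ins2 (12.33 ± 0.07 and 12.45 ± 0.15, SD, n = 5 arrays each) were far brighter than the 95th percentile of genes on any array (10.6 to 10.7). Pancreatic acinar transcripts differed in level between the arrays. The mean log2 value of 27 measured acinar markers ranged from 7.92 to 8.74 in C3H. In NZO it ranged from 9.60 to 10.15 over replicates 1 to 3 and reached 11.53 in replicate 4 and 11.39 in replicate 5, the 2 samples whose titles are numbered in another form than the rest. NZO replicate 2 had the lowest acinar mean of the NZO arrays. C3H replicate 4 had the highest array median (7.05). Strain differences are given below with all arrays, and again without NZO replicates 4 and 5 where that changes a call.

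Promoter sequence is shown for Slc2a2 and Pcx, the 2 genes that passed the test between the strains, and for the second annotated start of G6pc2, whose window held an E-box string at 2 places. The RefSeq promoter table of GRCm38.p6 held 4 of the 6 genes: Slc2a2, G6pc2, Pcx and Glud1. Each window is the 250 bases before an annotated start, 5′ to 3′ on the + strand, in the C57BL/6J reference rather than in either strain measured. Capitals mark matches, on either strand, to 1 of 7 motifs: TAATTA (homeodomain), CATCTG (an E-box form bound by Neurod1 heterodimers), CACGTG (E-box), TGTTTAC (forkhead), GTTAAT (part of the HNF1 site), GGGCGG (the GC box) and TATAAA, the core promoter box named for its letters.
Slc2a2, chr3:28697653-28697902: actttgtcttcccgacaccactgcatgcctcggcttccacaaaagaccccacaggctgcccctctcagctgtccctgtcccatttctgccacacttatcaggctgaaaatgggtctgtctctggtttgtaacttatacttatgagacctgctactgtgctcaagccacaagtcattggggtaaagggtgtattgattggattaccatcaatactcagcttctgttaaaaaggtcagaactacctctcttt
Pcx, first start, chr19:4510222-4510471: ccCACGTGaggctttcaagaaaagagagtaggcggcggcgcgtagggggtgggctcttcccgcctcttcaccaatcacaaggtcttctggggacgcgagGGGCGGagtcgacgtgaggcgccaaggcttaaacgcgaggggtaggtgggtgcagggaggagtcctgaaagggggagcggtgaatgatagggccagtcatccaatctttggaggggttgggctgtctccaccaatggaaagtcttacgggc
G6pc2, second start, chr2:69219699-69219948: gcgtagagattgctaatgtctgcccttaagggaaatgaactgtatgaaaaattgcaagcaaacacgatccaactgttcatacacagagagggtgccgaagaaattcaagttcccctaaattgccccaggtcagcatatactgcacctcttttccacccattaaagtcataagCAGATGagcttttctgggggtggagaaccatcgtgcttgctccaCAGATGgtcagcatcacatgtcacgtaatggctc
The Slc2a2 window held none of the 7 letter strings and had 2 CpG dinucleotides, against a median of 6 over the 32851 promoters of the table. The first Pcx window held CACGTG at -248 and GGGCGG at -151 from the start, which 6.02% and 32.7% of all promoters contain, and it had 16 CpG dinucleotides. The G6pc2 window held CATCTG on the opposite strand, printed as CAGATG starting at -78 and again at -34. Of all promoters, 14.4% contain that string at least once on either strand. No marked strings overlapped in these 3 windows. The second Pcx window and the first G6pc2 window held none of the strings, and that of Glud1, with 46 CpG dinucleotides, held GGGCGG at 3 places and CATCTG at 1.

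The comparison between the strains asked which steps of glucose sensing differ in transcript level between diabetes-prone NZO islets and C3H islets. The array signals of the glucose transporter and pyruvate carboxylase genes were lower in NZO. Slc2a2 was lower by 2.92-fold and Pcx by an amount whose 95% interval ran from 1.25-fold to 1.81-fold. Each member was read by 1 probe set. Whether the strains differ in sequence under the probes of these or other genes was not tested. Of the 6 genes, these 2 passed limma's test at a Benjamini-Hochberg adjusted p below 0.05 over all genes, both lower in NZO, where 10.1% of all genes passed, 5.47% as higher and 4.61% as lower in NZO. The members' median difference (NZO minus C3H) was -0.17 log2 units, that of all genes -0.02.

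Slc2a2 read 11.59, 11.05, 11.22, 11.73 and 11.42 on C3H replicates 1 to 5 and 10.20, 10.97, 9.96, 9.04 and 9.13 on NZO replicates 1 to 5. Every C3H array was above every NZO array, but NZO replicate 2 lay just under the lowest C3H array, and the NZO values spread over 1.94 units against 0.68 in C3H. Non-overlapping strains were found for 9.14% of all genes and, among the 6, for Slc2a2 alone. Its mean fell from 11.40 ± 0.27 (SD, n = 5) to 9.86 ± 0.80 (SD, n = 5), a log2 difference of -1.54 with a standard error of 0.29 and an adjusted p of 0.00309 by limma. The 95% interval of that difference ran from -2.17 to -0.92, or 1.89-fold to 4.50-fold. The lowest NZO values, 9.04 and 9.13, were those of the arrays with the highest acinar means. With these 2 arrays left out, a fit in which 5.54% of all genes passed, Slc2a2 differed by -1.03 (SE 0.20, limma adjusted p = 0.00768), so the gene passed at a smaller difference. Within NZO the Slc2a2 values followed the reverse order of the acinar means on all 5 arrays. With the acinar mean as a covariate beside strain, which alone multiplies the SE of a strain difference by 2.10, the difference was 0.04 (SE 0.38) and did not pass. The highest acinar mean in C3H (8.74) lay below the lowest in NZO (9.60), so this fit separates strain from acinar signal poorly. In whole islets, fewer beta cells, a larger share of RNA from adherent tissue and less transcript per beta cell cannot be told apart.

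G6pc2, whose product returns glucose 6-phosphate to glucose, read 13.38, 13.28, 13.19, 13.31 and 13.32 on the C3H arrays and 12.95, 13.40, 13.03, 12.87 and 12.90 on the NZO arrays. NZO replicate 2 was the highest of all 10 arrays, and the other 4 NZO arrays were below every C3H array. The difference of -0.27 (SE 0.10, 95% interval -0.48 to -0.06) did not pass over all genes (limma adjusted p = 0.105). Without NZO replicate 2 it was -0.36 (SE 0.08) and passed (limma adjusted p = 0.00571), in a fit where 12.4% of all genes did. With the acinar mean as a covariate it was 0.06 (SE 0.19). All 10 values lie close to the brightest signal of each array (13.96 to 14.05).

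Pcx, whose product refills the citric acid cycle, read 9.96, 9.68, 10.00, 9.75 and 9.92 in C3H and 9.25, 9.75, 9.23, 8.94 and 9.19 in NZO. The strains overlapped through NZO replicate 2, which was above C3H replicates 2 and 4, while the other 4 NZO arrays lay below every C3H array. Its mean was 9.86 ± 0.14 in C3H (SD, n = 5) against 9.27 ± 0.30 in NZO (SD, n = 5), a log2 difference of -0.59 (SE 0.13, limma adjusted p = 0.00756) with a 95% interval of -0.86 to -0.32. The call ended without NZO replicates 4 and 5 together (-0.45, SE 0.13, limma adjusted p = 0.0648) and with the acinar mean as a covariate (-0.18, SE 0.24), a fit in which 1.07% of all genes passed. It held when any single array was left out (limma adjusted p 0.000239 to 0.0254).

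Glud1 did not differ beyond the spread between arrays. It read 10.99, 11.13, 11.04, 10.86 and 10.95 in C3H and 10.81, 10.82, 11.01, 11.04 and 10.96 in NZO, with the strains interleaved. Its difference was -0.07 (SE 0.08, limma adjusted p = 0.733), and the 95% interval, -0.24 to 0.10, leaves room for changes of up to 1.18-fold downward.

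Neither channel subunit was lower in NZO. Abcc8 read 10.65, 10.45, 10.84, 10.43 and 10.69 on the C3H arrays and 11.09, 11.16, 11.07, 10.56 and 11.09 on the NZO arrays. Of the 5 NZO arrays, 4 lay above every C3H array, and NZO replicate 4, the array with the highest acinar mean, lay among the C3H values. The difference was 0.38 (SE 0.12, 95% interval 0.13 to 0.63, or 1.09-fold to 1.55-fold higher in NZO) and missed the threshold over all genes (limma adjusted p = 0.0559). It passed without NZO replicate 4 (0.49, SE 0.09, limma adjusted p = 0.00501), without NZO replicates 4 and 5 (0.49, SE 0.11, limma adjusted p = 0.0139) and without C3H replicate 3 (0.44, SE 0.12, limma adjusted p = 0.0438). With the acinar mean as a covariate the difference was 0.67 (SE 0.23, limma adjusted p = 0.357).

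Kcnj11 read 8.47, 8.28, 8.27, 8.47 and 8.46 in C3H and 8.38, 8.90, 8.49, 8.22 and 8.51 in NZO. The strains overlapped, with NZO replicate 2 the highest array and NZO replicate 4 the lowest. The difference of 0.11 (SE 0.11, limma adjusted p = 0.683) had a 95% interval of -0.13 to 0.34. Kcnj11 and Abcc8 are direct neighbours on chromosome 7, with no protein-coding gene between them in the gene table of GRCm38.p6. Their vascular and muscle counterparts Kcnj8 (0.26, SE 0.13, limma adjusted p = 0.279) and Abcc9 (0.10, SE 0.16, limma adjusted p = 0.815) did not pass either. The Kcnj8 difference passed without NZO replicate 2 (limma adjusted p = 0.0344).

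**Figure D1:**
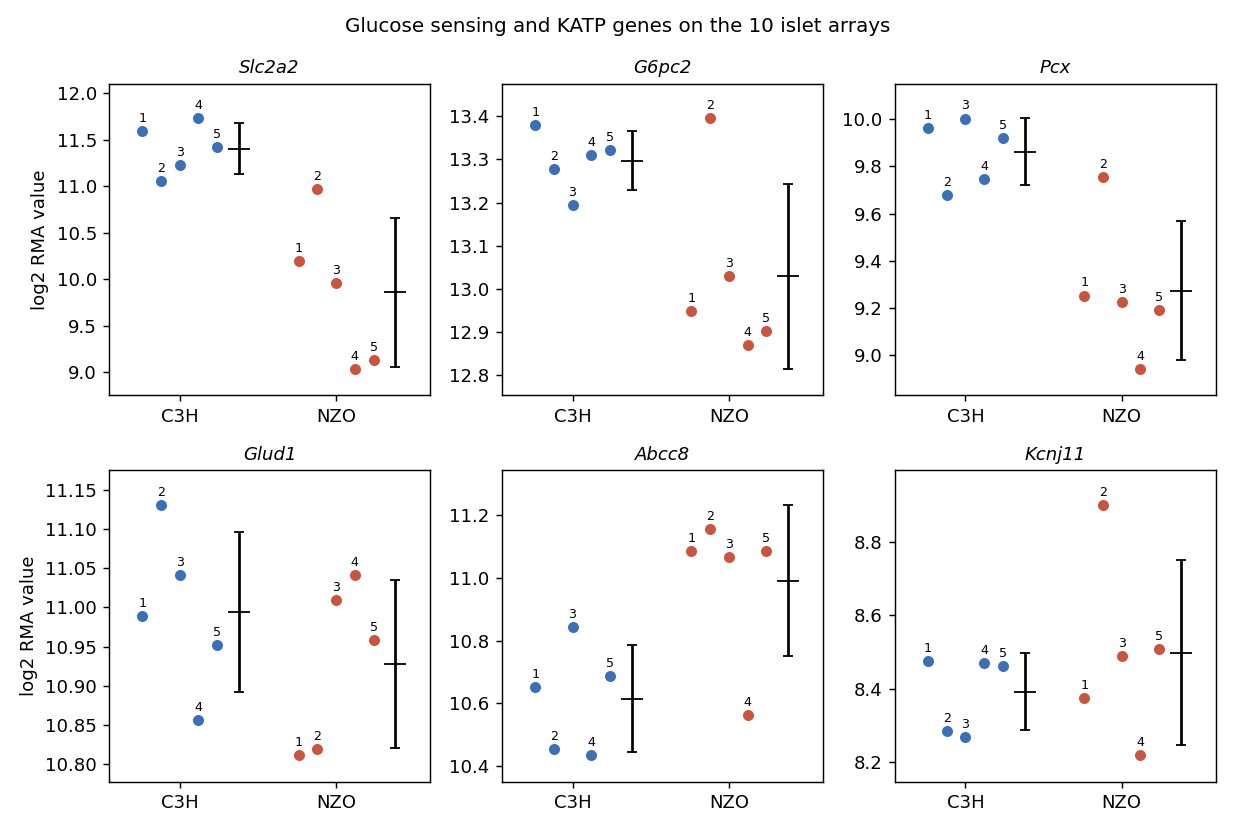
Log2 RMA value (vertical axis, a separate scale per gene) of the 6 genes on 5 C3H arrays (blue) and 5 NZO arrays (red), with replicate numbers above the points. Black bars are the mean and SD of each strain. Slc2a2 is the only gene whose strains do not overlap. NZO replicate 2 is the highest NZO array and replicate 4 the lowest in every panel but that of Glud1.

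With all 10 arrays and no covariate, the strain differences were unequal along the pathway. The within-array log2 difference of 2 genes was compared between strains for 6 pairs, by an exact two-sided permutation test over the 10 arrays whose smallest possible p is 0.00794, with Benjamini-Hochberg adjustment over the 6 pairs. All pairs but that of Abcc8 and Kcnj11 share Slc2a2, the member with the largest strain difference (-1.54), so their results are not independent. In the permutation test Slc2a2 was lower in NZO relative to every other member. Its log2 difference minus that of the other gene was -1.92 against Abcc8, -1.65 against Kcnj11, -1.28 against G6pc2, whose signal lies near the top of the arrays' range, and -0.96 against Pcx, each at the smallest p (exact permutation p = 0.00794, adjusted 0.0119). Against Glud1 it was -1.48 (exact permutation p = 0.0159, adjusted 0.019). The gaps were not tested with the acinar mean as a covariate. In that fit Slc2a2 differed by 0.04 (SE 0.38), G6pc2 by 0.06 (SE 0.19), Pcx by -0.18 (SE 0.24) and Glud1 by -0.235 (SE 0.17). Abcc8 differed by 0.67 (SE 0.23) and Kcnj11 by 0.43 (SE 0.22). Abcc8 and Kcnj11, which are assembled in equal number in the channel, differed from each other by 0.27 (SE 0.13, exact permutation p = 0.0476, adjusted 0.0476). That gap did not pass when any of C3H replicates 1, 2, 4 or 5 or NZO replicates 1, 3 or 5 was left out (adjusted p up to 0.0952, exact permutation). Without NZO replicates 4 and 5, where 5 arrays face 3, the gaps of Slc2a2 ran from -0.58 (Pcx) to -1.52 (Abcc8) and none of the 6 passed (adjusted p 0.0536 to 0.0714, exact permutation, 4 of the 6 with an unadjusted p below 0.05, the smallest possible being 0.0357).

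**Figure D2:**
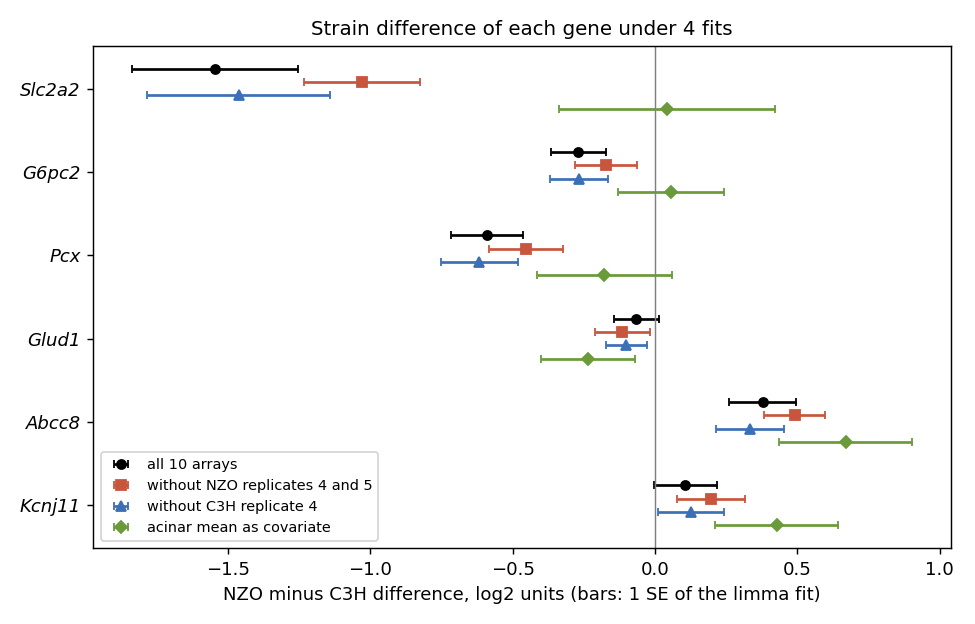
NZO minus C3H difference in log2 units (horizontal axis) of each gene with 1 SE of the limma fit, with all 10 arrays, without NZO replicates 4 and 5, without C3H replicate 4, and with the acinar mean as a covariate. Slc2a2 moves from -1.54 with all arrays to -1.03 without the 2 NZO arrays and 0.04 with the covariate. Abcc8 lies above 0 in all 4 fits (0.33 to 0.67).

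Of the 6 genes, 5 had the same highest and the same lowest NZO array, while the arrays between varied in order. NZO replicate 2 was the highest and NZO replicate 4 the lowest NZO array for Slc2a2, G6pc2, Pcx, Abcc8 and Kcnj11, and 7 of the 16 other measured beta cell identity genes had the same pair of extremes. Over all genes this pattern was found in 8.8%, and in 10.4% of genes above median brightness. NZO replicates 2 and 4 were also the NZO arrays with the lowest and the highest acinar mean. Glud1, which is expressed in most tissues, was highest on NZO replicate 4 and lowest on NZO replicate 1. In C3H the highest array differed among the genes: it was replicate 4 for Slc2a2, 1 for G6pc2 and Kcnj11, 3 for Pcx and Abcc8 and 2 for Glud1.

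**Figure D3:**
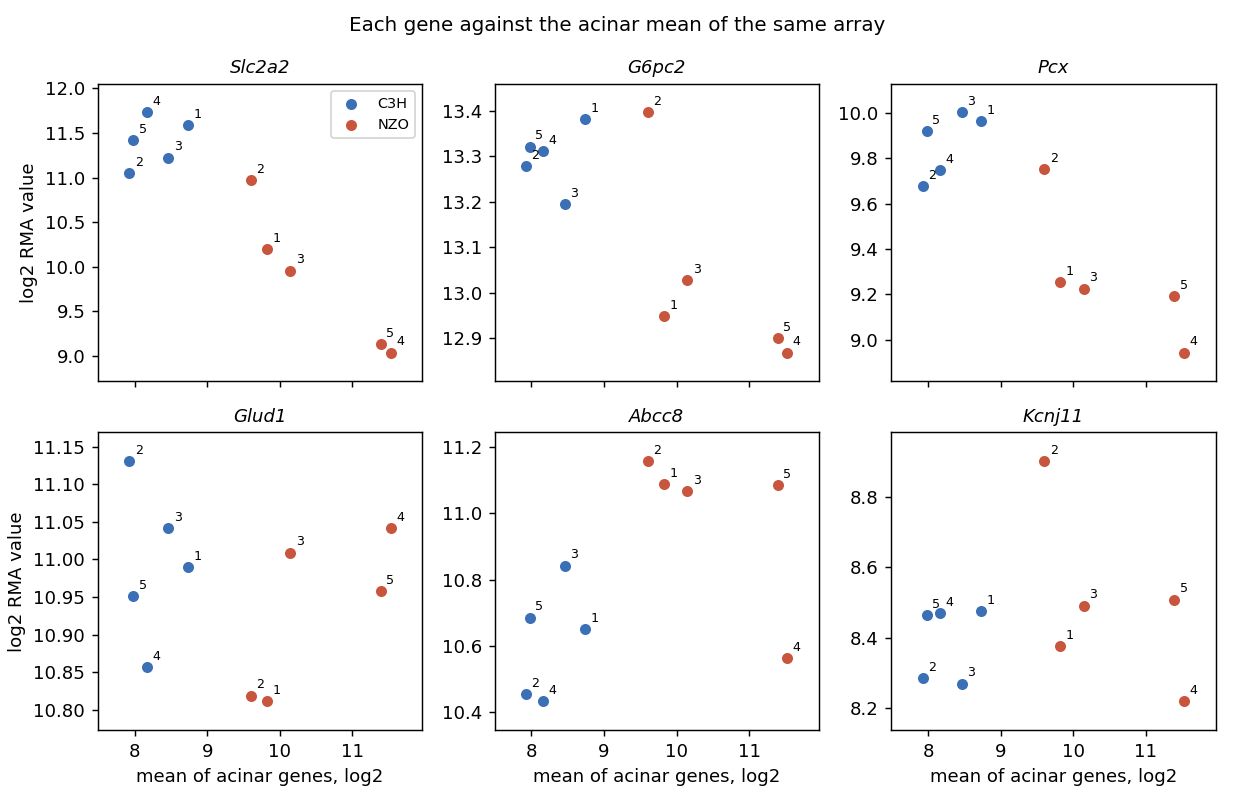
Log2 RMA value of each gene (vertical axis) against the mean log2 value of 27 acinar genes on the same array (horizontal axis), C3H in blue and NZO in red, with replicate numbers. Within NZO, Slc2a2 is lower on each array with a higher acinar mean, from 10.97 on replicate 2 to 9.04 on replicate 4, while the C3H arrays lie between 11.05 and 11.73 at acinar means of 7.92 to 8.74.

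NZO replicates 4 and 5 also had the highest means of macrophage, stellate and duct markers of all 10 arrays. Of 27 acinar genes 24 were higher in NZO and none lower by limma (0 lower also at an unadjusted p below 0.05). Over all genes 5.47% passed as higher and 4.61% as lower in NZO, and no marker list was tested against these shares. The means of 12 macrophage markers were 7.57 to 7.69 in C3H and 7.64 to 8.79 in NZO, and 5 of them were higher. Those of 10 stellate and fibroblast markers were 7.96 to 8.25 and 7.86 to 9.11 (2 higher), with NZO replicate 2 the lowest of all arrays at 7.86. Those of 11 duct markers were 8.84 to 9.04 and 9.12 to 9.90 (4 higher), and those of 10 endothelial markers 9.19 to 9.48 and 9.22 to 9.63 (2 higher). Among endocrine lists, 6 of 7 delta cell markers were lower (mean 8.81 to 9.16 in C3H, 8.14 to 8.38 in NZO), as were 2 of 7 alpha cell markers and 1 of 4 PP cell markers. Of 4 Schwann cell markers, which are glial, 1 was lower (mean 7.03 to 7.46 in C3H, 6.86 to 7.14 in NZO). No lymphocyte marker of 7 passed limma, nor did any have an unadjusted p below 0.05. The mean of 7 beta cell markers beside the 6 genes was 10.90 to 11.09 in C3H and 10.20 to 11.06 in NZO, highest on NZO replicate 2 (11.06) and lowest on replicate 4 (10.20). The part of this cell makeup in the differences of Slc2a2, G6pc2, Pcx and Abcc8 was not tested beyond the fits given above.

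Of 14 measured genes of glucose uptake and first phosphorylation, 3 were lower and 1 higher in NZO, with a median difference of 0.05, where 10.1% of all genes passed. Without NZO replicate 2 the count was 7, without NZO replicates 4 and 5 it was 2, and with the acinar covariate it was 0. Beside Slc2a2, the lower ones were Slc37a4 (-0.39, SE 0.09, limma adjusted p = 0.0147), which brings glucose 6-phosphate to the phosphatase in the endoplasmic reticulum, and Pfkfb2 (-0.36, SE 0.10), whose product sets the level of an activator of phosphofructokinase. The hexokinase-like gene Hkdc1 was higher (0.44, SE 0.07, limma adjusted p = 0.000953). Slc2a1, the other glucose transporter of note in islets, differed by 0.16 (SE 0.13, 95% interval -0.12 to 0.44) and the ubiquitous phosphatase gene G6pc3 by 0.09 (SE 0.08). Without NZO replicates 4 and 5, neither Slc37a4 (limma adjusted p = 0.148) nor Pfkfb2 (limma adjusted p = 0.247) passed. Pfkfb2 also did not pass in 7 of the 10 fits that left out 1 array, those without C3H replicates 1, 2, 3 and 5 and NZO replicates 3 to 5 (limma adjusted p 0.0533 to 0.0773). Of 11 genes of lower glycolysis none passed limma (median -0.11), while 3 had an unadjusted p below 0.05. With each array centred on its median 2 of them passed, without C3H replicate 1 it was 1, and without NZO replicate 1 it was 3.

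Of 27 measured genes of pyruvate entry and cycling, Pcx among them, 4 were lower and 1 higher (median -0.04), where 10.1% of all genes passed. Pdk1 alone of the 5 differed by more than Pcx. With NZO replicate 1 left out 8 of the 27 passed, and with the acinar covariate 1 did. Pdk1, a kinase that switches off pyruvate dehydrogenase, read 9.13 ± 0.18 (SD, n = 5) in C3H and was lower in NZO at 8.14 ± 0.24 (SD, n = 5), a difference of -0.998 (SE 0.12, limma adjusted p = 7.04e-05) with no overlap of the strains. Pdp1, the phosphatase that switches the same enzyme on, was lower too (-0.45, SE 0.08). Mpc1, a subunit of the mitochondrial pyruvate carrier, was lower by 1.24-fold (-0.31, SE 0.09), and the malic enzyme gene Me1 was 1.34-fold higher (0.42, SE 0.08). Mpc1 did not pass in 7 fits with 1 array left out, each of C3H replicates 1, 2, 3 and 5 and NZO replicates 3 to 5 (limma adjusted p 0.0709 to 0.0982), nor without NZO replicates 4 and 5 together (0.234). Pdk1 (-1.02), Pdp1 (-0.48) and Me1 (0.38) passed without NZO replicates 4 and 5.

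Around Glud1, 3 of 19 measured genes of glutamate metabolism and mitochondrial shuttles were lower and 2 higher (median -0.07), where 10.1% of all genes passed. That count of 5 was 3 without C3H replicate 1 or NZO replicate 3. Hadh, whose product binds and inhibits glutamate dehydrogenase in islets beside its part in fatty acid oxidation, was lower by 1.81-fold, at 12.04 ± 0.17 in C3H and 11.18 ± 0.44 in NZO (-0.85, SE 0.17, limma adjusted p = 0.00447). It differed by -0.59 without NZO replicates 4 and 5, where it passed, and by -0.09 with the acinar mean as a covariate. Glul, glutamine synthetase, was 1.78-fold higher (0.83, SE 0.09), with no overlap of the strains, and stood at 0.83 with the acinar covariate as well, where it passed (limma adjusted p = 0.0478). Gad1, which makes the transmitter GABA from glutamate, was 1.77-fold lower (-0.82, SE 0.09), and Psat1, of serine synthesis, 1.36-fold higher (0.45, SE 0.11), which did not pass once C3H replicate 1 (limma adjusted p = 0.0551) or NZO replicate 3 (limma adjusted p = 0.0535) was dropped.

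Among 11 measured KATP subunits and adenylate and creatine kinases, Ak5 alone passed, higher by 1.49-fold (0.57, SE 0.08), and the list median was 0.16. The count was 2 without C3H replicate 3, NZO replicate 2 or NZO replicate 4. Of 11 genes linked to the trafficking or anchoring of the channel, Ank2 was higher and Prkar1a lower. Ank2 encodes ankyrin-B, a membrane anchor that binds Kir6.2, and rose from 7.78 ± 0.15 (SD, n = 5) in C3H to 9.53 ± 0.11 (SD, n = 5), a 3.37-fold difference (1.75, SE 0.09, limma adjusted p = 1.96e-08). It stood at 1.77 without NZO replicates 4 and 5 and at 1.79 with the acinar covariate, passing in both. Prkar1a, a regulatory subunit of protein kinase A, was 1.51-fold lower (-0.60, SE 0.08). Of 19 channels that act after KATP closure, the L-type calcium channel gene Cacna1c (0.32, SE 0.09) and the potassium channel gene Kcnq1 (0.27, SE 0.08) were higher and the leak channel gene Kcnk3 lower (-0.46, SE 0.07). That count of 3 was 5 without NZO replicate 2 and 1 without C3H replicate 1 or 2 or NZO replicate 5. Cacna1c did not pass in 6 of the 10 fits with 1 array left out, those of C3H replicates 1, 2 and 4 and NZO replicates 1, 3 and 5 (limma adjusted p 0.053 to 0.098). Kcnq1 did not pass in 7, those of C3H replicates 1, 2, 3 and 5 and NZO replicates 3 to 5 (limma adjusted p 0.0693 to 0.122). Neither passed without NZO replicates 4 and 5 together (limma adjusted p = 0.0701 for Cacna1c and 0.25 for Kcnq1).

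Some of the genes listed as beta cell transcription factors and identity genes were lower in NZO, in whole islets that also hold other endocrine cells. Of 19 transcription factors, Isl1 (-0.79, SE 0.09), Mnx1 (-0.78, SE 0.12) and Pax6 (-0.50, SE 0.09) were lower and none higher by limma, and 3 were higher at an unadjusted p below 0.05. Pdx1 (-0.45, SE 0.17, limma adjusted p = 0.114) and Mafa (-0.45, SE 0.15, limma adjusted p = 0.0875), which bind beta cell promoters, did not pass with all arrays and passed without NZO replicate 2 (limma adjusted p 0.00544 and 0.0025), where 6 of the 19 did. Nkx6-1 (0.01, SE 0.14) and Neurod1 (0.06, SE 0.08) differed by less than their errors. Of 18 identity genes 7 were lower and none higher by limma, with 2 higher at an unadjusted p below 0.05. Beside Slc2a2 the leading ones were Slc30a8 (-1.10, SE 0.16), a zinc transporter of insulin granules, the secreted peptide gene Ucn3 (-1.12, SE 0.19), the granule protein gene Sytl4 (-0.59, SE 0.13) and the neuropeptide gene Npy (-0.59, SE 0.13). Ins2 (0.12, SE 0.08), Iapp (-0.03, SE 0.07) and Gcg (-0.04, SE 0.08) did not pass. The C3H means of Iapp (13.90) and Gcg (13.25), like that of G6pc2, lie near the top of the arrays' range, and that of Ins2 was 12.33. Sst (-0.75, SE 0.11) and Ppy (-0.41, SE 0.08) were lower, with C3H means of 13.87 and 13.78 in the same part of that range. Over the 9 lists, 29 of 146 genes passed, 8 higher and 21 lower, against the 10.1% of all genes. Without NZO replicates 4 and 5, 22 passed, of which 20 were among the 29. With the acinar mean as a covariate 3 passed, Ank2 and Glul in the same direction as without it, and Pdk4, a pyruvate dehydrogenase kinase gene named here after its value was seen (-1.22, SE 0.27, limma adjusted p = 0.0431).

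**Figure D4:**
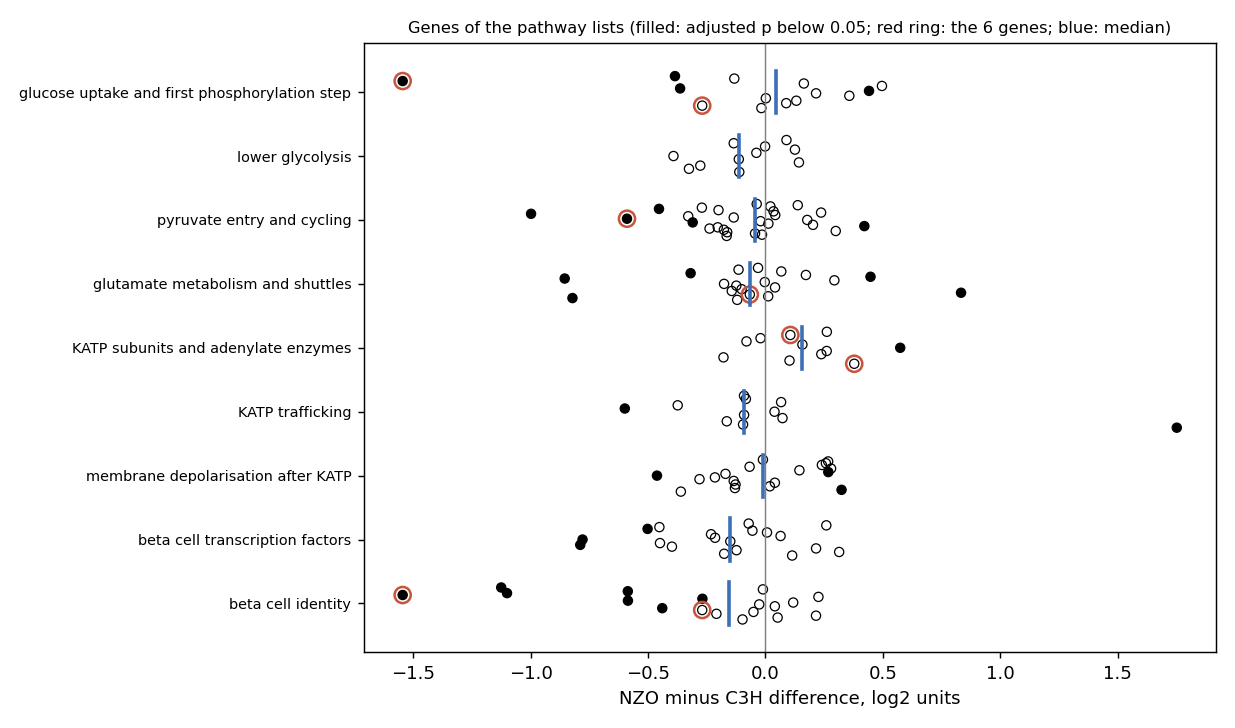
NZO minus C3H difference in log2 units (horizontal axis) of every measured gene in 9 pathway lists, 1 circle per gene. Filled circles passed limma at an adjusted p below 0.05, red rings mark the 6 genes and blue bars the list medians. Slc2a2 (-1.54) is the lowest value and Ank2 (1.75) the highest, and the list medians lie between -0.15 and 0.16.

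Likeness to the 2 genes that passed was measured as the root mean square difference between log2 profiles over the 10 arrays, each gene centred on its own mean. The nearest profiles to Slc2a2 were those of Angptl7, a secreted angiopoietin-like protein (0.25 log2 units), Ucn3 (0.31) and Ppp1r1a, an inhibitor of a protein phosphatase (0.33). Angptl7 was 10.32 ± 0.17 in C3H and 8.70 ± 0.84 in NZO and Ppp1r1a 11.11 ± 0.09 and 10.00 ± 0.51. Nearest to Pcx were Cntrob, a centrosome protein gene (0.09), Slc7a2, a transporter of cationic amino acids (0.10), and the selenocysteine lyase gene Scly (0.11). Their strain differences were -0.53 (Cntrob), -0.57 (Slc7a2) and -0.44 (Scly), beside -0.59 for Pcx. The likeness measure contains the strain contrast, so similar strain differences follow from how these genes, and those nearest to Slc2a2, were chosen. Without NZO replicates 4 and 5, Slc7a2 (limma adjusted p = 0.0544) and Scly (limma adjusted p = 0.231) did not pass. Scly also did not pass when C3H replicate 1, 3 or 5 or any of NZO replicates 3 to 5 was dropped (limma adjusted p 0.0528 to 0.0759).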

How the data were processed

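Total RNA (150 ng per array, integrity number above 8) was hybridised to a whole-transcript Affymetrix array, according to the labels' protocols. The authors deposited log2 values computed by RMA (Expression Console, per the submitters' processing notes), which quantile-normalizes the arrays and can compress dim and very bright signals. Genome build: not given in the sources used here. The number of arrays limits precision, and p-values reflect only the spread among the arrays, which may be technical.

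Of 35556 probe sets, 21789 had 1 gene symbol, 1621 several and 12146 are not named here. The brightest single-symbol probe set by mean of 10 arrays represented each gene (19938 genes, no filter). NZO minus C3H was fitted with lmFit and eBayes of limma 3.58.1 (R 4.3.3) and p-values were adjusted by Benjamini-Hochberg across genes. Exact permutation tests used SciPy 1.17.1. The script was tested on simulated data. Members, lists and alternatives were chosen with earlier results of these data known. From each list up to 4 passing genes with the smallest p were named, with paralogs, hormones, 4 transcription factors and the 3 profiles nearest to each member that passed.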

Additional observations from a re-analysis of the deposited data

Results flagged for a closer look

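In each strain's 5 arrays, an array was singled out when its gap to the nearest other array exceeded the critical share of the range in Dixon's test, which chance exceeds in about 1 of 20 groups. Of 96 groups tested over the 48 named genes, 6 were singled out. Abcc8 on NZO replicate 4 was 10.56, where the other NZO arrays lay between 11.07 and 11.16. Iapp on NZO replicate 2 was 13.96, against 13.84 to 13.87. On C3H replicate 4, Mpc1 was 10.30 (others 10.54 to 10.62), Kcnk3 9.35 (9.16 to 9.21) and Mnx1 6.91 (7.45 to 7.54). Npy on C3H replicate 2 was 8.47, against 7.73 to 7.88.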

How the results depend on the processing

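No paired analysis was possible, because nothing in the labels links a C3H sample to an NZO sample. The labels give no replicate numbers, and those used here only follow the sample order. Slc2a2 kept its direction and its call under 17 of 18 alternatives, 10 of which left out 1 array. The mean of probe sets (the gene has 1), the brightness filters and the trended robust prior could not change its difference. With the acinar mean as a covariate Slc2a2 was 0.042 and G6pc2 0.056, both turned in sign, and Pcx (-0.18) lost its call. Without NZO replicates 4 and 5, Pcx (-0.45) lost its call and Abcc8 (0.49) gained one. Abcc8 also passed above median brightness and above the 25th percentile of brightness (0.38 each), with a trended robust prior (0.38) and with array weights (0.33), and G6pc2 (-0.29) passed with array weights. Over the fits without 1 array the differences ranged from -1.82 to -1.34 (Slc2a2), -0.36 to -0.23 (G6pc2), -0.71 to -0.51 (Pcx), -0.10 to -0.03 (Glud1), 0.33 to 0.49 (Abcc8) and 0.01 to 0.18 (Kcnj11). Members that passed limma numbered 2 to 3 in those fits, 4 with array weights and 0 with the acinar covariate, where only Abcc8 had an unadjusted p below 0.05. Of all genes, 2010 passed (1090 higher, 920 lower in NZO), 1105 (613 and 492) without NZO replicates 4 and 5, 214 (119 and 95) with the covariate, 4125 (1815 and 2310) with array weights, and 1441 to 2701 without 1 array (772 to 1509 higher, 641 to 1574 lower, the last without C3H replicate 4). Of the pathway genes 29 passed, 3 with the covariate (Ank2, Glul and Pdk4), 57 with array weights and 23 to 37 without 1 array. The gap between Abcc8 and Kcnj11 was 0.21 to 0.36 without 1 array, and without NZO replicates 4 and 5 it was 0.29, those of Slc2a2 being -0.86 (G6pc2), -0.58 (Pcx), -0.91 (Glud1), -1.52 (Abcc8) and -1.23 (Kcnj11), none of which passed. Among other named genes the covariate turned Slc37a4 (0.0051), Pfkfb2 (0.033), Sytl4 (0.068), Slc2a1 (-0.074), Abcc9 (-0.54), Kcnj8 (-0.15), Angptl7 (0.19), Scly (0.056), Iapp (0.0495), Pdx1 (0.21) and Mafa (0.31). Abcc9 was -0.13 without NZO replicates 4 and 5. Nkx6-1 was -0.021 with arrays centred, -0.0585 with array weights and -0.12 to 0.1156 without 1 array, and Gcg -0.0669 to 0.0044 without 1 array. Of the 31 named genes beside the 6 that passed, 2 passed with the covariate, 24 without NZO replicates 4 and 5 and 25 to 31 without 1 array. The covariate enlarges the SE and separates strain from acinar signal poorly, as the acinar means of the strains do not overlap. The causes of these changes were not tested. Array signal has no detection call here, so dim genes may be unmeasured.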
